A study of Amaranthus hybridus and Amaranthus hypochondriacus with 18 samples.

Results

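The 100 transcripts described here are those of *Amaranthus hypochondriacus* leaves whose level was lower under salt stress while water deficit left their mean level near that of the control. They were chosen on the values of the 9 libraries of this species, expressed as log2 CPM (counts per 1 M, or mega, counts of a library) with TMM factors, which correct for a few very abundant transcripts that take up reads, and a prior count of 2. A transcript qualified when all 3 salt libraries lay below all control and all water-deficit libraries and when its mean under water deficit lay within 0.5 log2 of the control mean. Of 12429 transcripts with enough counts to be tested, 4.99% had all salt libraries below all others, and 431 met both conditions and were ranked. The ranking was by the gap, which is the smaller of the control and water-deficit means minus the salt mean, and the top 100 were kept. All differences among the control, salt and water-deficit libraries of *A. hypochondriacus* were thus used in the choice, and the values given below for these comparisons are a description of the members and not a test of them.

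RNA was sequenced from leaves of the cultivated *A. hypochondriacus* (cv. Nutrisol) and of the wild *A. hybridus*, in 18 libraries, 3 for each group, and the leaves in a library came from 3 pooled plants. Control plants were irrigated, plants of the salt group were given 100 ml of NaCl daily (7 days at 0.15 mol/l, then 4 days at 0.3 mol/l and 3 days at 0.5 mol/l), and those of the water-deficit group went without irrigation for 14 days. Plants were about 1 month old when the treatments began. The paper reports that controls were watered every few days and not daily, so the salt group also received liquid more often. All groups of *A. hypochondriacus* were of the same cultivar, and no line of *A. hybridus* is named. Whole leaves hold several cell types, and in such bulk samples fewer cells of a type and less RNA per cell cannot be told apart.

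Both treatments limit water uptake, and salt adds sodium and chloride ions that enter the shoot. A contrast of the 2 treatments therefore asks which leaf transcripts differed under the salt treatment and not under the dry one. Salt and the more frequent watering that came with it cannot be told apart here. Leaf cells under salt are known to adjust starch breakdown, ion and nitrate transport, glutathione-dependent detoxification, protein folding and respiration. Named members touched on these processes, some by 1 transcript only, and they are described by role below. No named member was described as a transporter of sodium, potassium or chloride.

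The libraries of *A. hypochondriacus* held 10.9 to 20.5 M counts, but 92.7 to 97.1% of them fell on the 20 most abundant transcripts, so that 0.320 to 1.5 M counts remained for all others. Water deficit replicate 2 had the smallest total. The leaf label was checked with 16 tested transcripts described as chlorophyll a-b binding protein or small chain of ribulose bisphosphate carboxylase, the abundant proteins of mesophyll. Their summed level was 520 to 758 CPM in controls, 122 to 169 CPM under salt and 72.3 to 75.3 CPM under water deficit, and none of them is a member. Transcripts described as viral (4 tested) summed to 56.9 to 80.7 CPM in controls, 91.1 to 305 CPM under salt and 44.5 to 152 CPM under water deficit. Their part in the results was not tested.

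Most members were rare transcripts. Summed over the 9 libraries, a member had a median of 172 counts, with a range from 68 to 462100, and 64 members averaged below 2 CPM, 25 between 2 and 20 CPM, and 11 above. The median of the mean log2 CPM was 0.28 for members and 0.44 for all tested transcripts. Each member had at least 1 count in every salt library, so no fold change stands against 0. All 100 members passed the filter on low counts, which asks for 0.606 CPM in at least 3 libraries, but only 46 would have passed on the 3 salt libraries alone. The other members entered through the groups in which they were higher.

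The gap ranged from 0.88 to 2.07 log2 with a median of 1.10, and it exceeded 1 in 66 members. At the limit of the ranking the members AhypoNutrisol_DN1590_c0_g1_i1, AhypoNutrisol_DN13259_c0_g1_i1 and AhypoNutrisol_DN6757_c0_g1_i1 had gaps of 0.887, 0.885 and 0.883. The first transcripts left outside, AhypoNutrisol_DN8362_c0_g2_i1, AhypoNutrisol_DN8190_c0_g2_i1 and AhypoNutrisol_DN26198_c0_g1_i1, had gaps of 0.879, 0.879 and 0.871. The list therefore ends within a continuous run of values and not at a break.

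**Figure D1:**
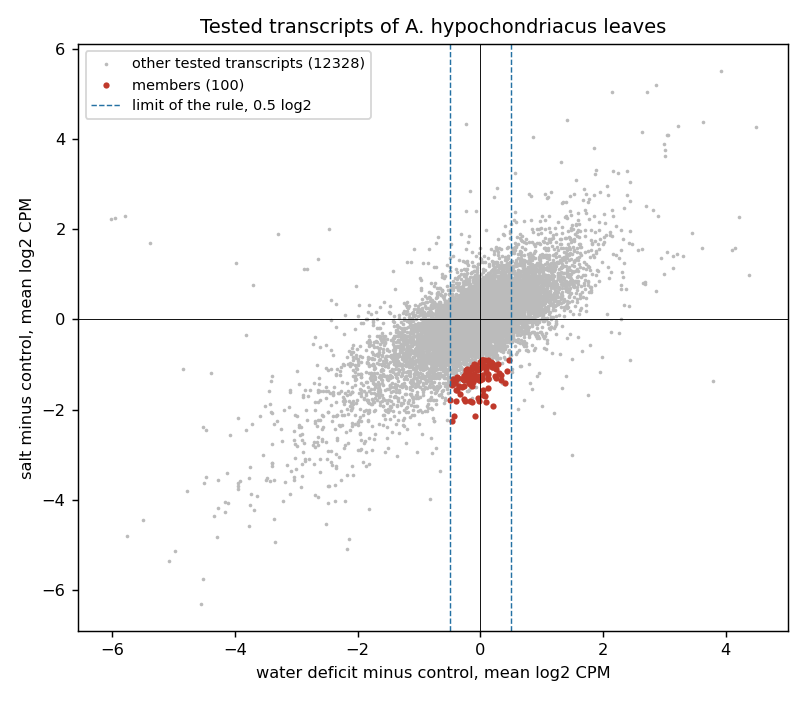
Mean log2 CPM under salt minus control (vertical) against water deficit minus control (horizontal) for tested transcripts of A. hypochondriacus. Grey points are 12328 other transcripts, red points the 100 members, and dashed lines the limit of 0.5 log2 that the choice set. Members form a compact patch below the main diagonal cloud.

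By edgeR's quasi-likelihood test, with an FDR below 0.01 and an absolute log2 fold change (log2FC) above 1 as the call, 58 members were lower under salt than in the control, against 6.61% of all tested transcripts. Against water deficit, 42 members were called lower under salt, where 1.75% of all tested transcripts were. Both calls held for 34 members, and 34 had neither. No member was called for water deficit against control, where 9.7% of all tested transcripts were called in either direction by the same test. At an unadjusted p below 0.05 the number was 3, and DESeq2 and the exact test of edgeR called 0 as well. The choice fixed these counts in large part, and nothing is read from them. With library totals as the only scaling, 2 members were called lower than control, AhypoNutrisol_DN7236_c0_g1_i1 and a glutathione S-transferase, and 3 lower than water deficit. The first count fell to 38, 32, 37 and 29 without control replicate 1, control replicate 3, salt replicate 1 and salt replicate 2, and the second fell to 18, 14 and 24 without salt replicates 1, 2 and 3 and to 16 and 15 without water deficit replicates 1 and 3. The median log2FC of the members was -1.45 for salt against control, with a range from -2.62 to -0.93, and -0.03 for water deficit against control, where all tested transcripts had medians of 0.00 and 0.01. The mean under water deficit lay above the control mean in 43 members and below it in 57.

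**Figure D2:**
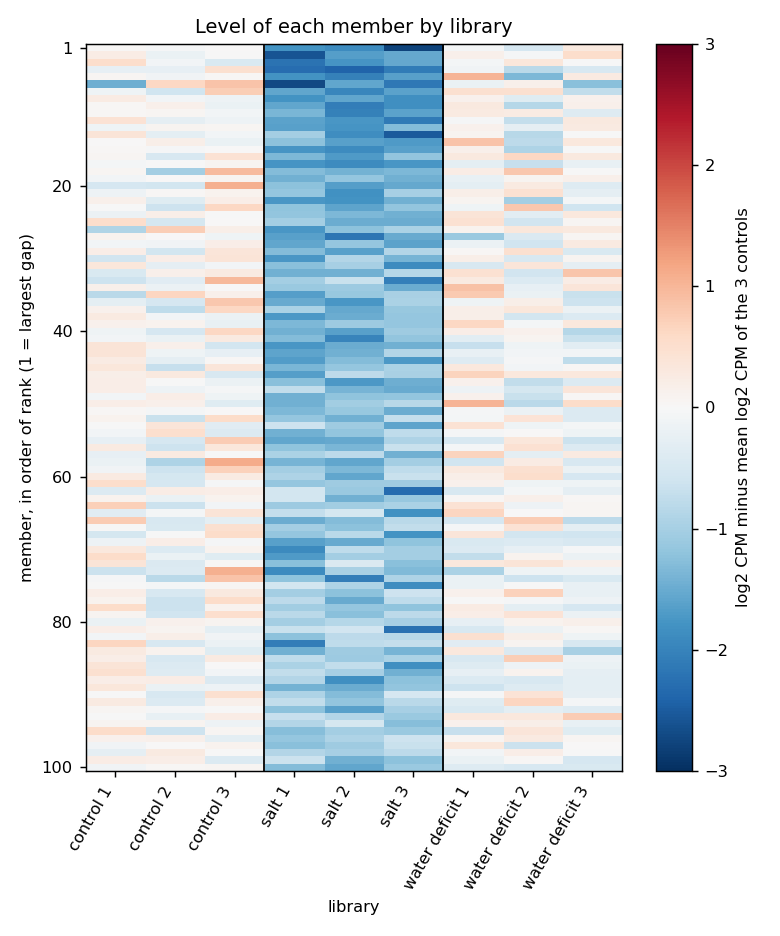
Level of the 100 members (rows, in order of rank) in the 9 libraries (columns), as log2 CPM minus the mean of the 3 controls. Blue is lower and red higher. The 3 salt columns are blue throughout, and a few cells of the control and water-deficit columns lie more than 1 log2 from the control mean.

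A name was at hand for 30 members. Names come from the annotation that the study gave to transcripts on its own lists. Those lists were made from these same libraries, so that a name marks a transcript the study had already singled out. The remaining 70 members have no name here. In the control, unnamed members averaged from 0.578 to 825 CPM with a median of 1.19 CPM. Their median was 0.435 CPM under salt and 1.13 CPM under water deficit. Salt was called lower than control for 31 of the 70, and for 27 of the 30 with a name, against 6.61% of all tested transcripts. An average below 2 CPM was found for 59 of the unnamed and 5 of the named members. As the choice and the study's lists used these libraries, nothing is read from the difference.

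Unnamed transcripts lead the ranking, and 6 of the 10 highest members are among them. The member with the largest gap, AhypoNutrisol_DN7158_c1_g1_i1, stood at 1.43, 1.36 and 1.41 CPM in the 3 controls, at 0.320, 0.298 and 0.108 CPM under salt, and at 1.35, 0.951 and 1.75 CPM under water deficit. Its log2FC was -2.42 against control and -2.47 against water deficit. AhypoNutrisol_DN7236_c0_g1_i1, the fourth in rank, stood at 1.85, 1.86 and 3.16 CPM in controls, 0.366, 0.325 and 0.432 CPM under salt, and 2.06, 1.22 and 1.58 CPM under water deficit. With so few counts per library, the salt groups of these transcripts rest on small numbers of reads.

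Starch breakdown was represented by the chloroplastic beta-amylase (AhypoNutrisol_DN3518_c0_g1_i1), which releases maltose from starch. Its longer name is beta-amylase 1, an enzyme that in Arabidopsis is regulated by thioredoxin. The transcript stood at 22.6, 20.1 and 22.2 CPM in the control libraries, at 6.12, 5.22 and 6.97 CPM under salt, and at 44.0, 8.43 and 25.9 CPM under water deficit. The controls and the salt libraries were each tight, whereas the water-deficit libraries spread from just above the salt level to above every control. The log2FC was -1.83 ± 0.37 (SE, FDR 0.00178 by edgeR) for salt against control and -2.11 ± 0.37 (FDR 0.00191) against water deficit. The first of these calls was lost without control replicate 1 (FDR 0.0104), control replicate 3 (FDR 0.0114), salt replicate 1 (FDR 0.0123) or salt replicate 2 (FDR 0.0171), with log2FCs from -1.84 to -1.72. Among 33 described and tested transcripts for starch and sugar phosphates, 23 were called lower and 5 higher under salt, and 21 lower and 2 higher under water deficit. Over all tested transcripts, 6.61% were called lower and 3.53% higher under salt, and 6.95% and 2.75% under water deficit. Beta-amylase was the only one of the 33 among the members.

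Detoxification was represented by a transcript like the glutathione S-transferase U19 (AhypoNutrisol_DN19555_c0_g1_i1), a tau-class enzyme that couples glutathione to reactive compounds. It was measured at 0.589, 2.86 and 3.41 CPM in controls, 0.183, 0.541 and 0.324 CPM under salt, and 1.59, 2.04 and 0.700 CPM under water deficit. The lowest control lay close to the highest salt library, and the 3 salt libraries together held 30 counts. The log2FC against control was -2.58 ± 0.52 (FDR 0.00162 by edgeR), and the call was lost without control replicate 2 (FDR 0.0205), control replicate 3 (FDR 0.0235) or salt replicate 1 (FDR 0.0107). Against water deficit the transcript was not called (log2FC -1.71, FDR 0.0634).

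Chaperones formed a group of 3 members. Heat shock cognate protein 80 (AhypoNutrisol_DN8381_c0_g1_i1), a cytosolic chaperone of the HSP90 family that folds kinases and receptors, stood at 53.2, 54.9 and 59.6 CPM in controls, at 16.5, 15.0 and 16.5 CPM under salt, and at 45.7, 34.8 and 48.0 CPM under water deficit. The group means were 55.9 ± 3.30, 16.0 ± 0.836 and 42.8 ± 7.04 CPM (SD, n = 3). The log2FC was -1.80 ± 0.20 for salt against control and -1.42 ± 0.20 against water deficit.

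Heat shock protein 70 (AhypoNutrisol_DN4358_c0_g1_i1), which binds unfolded proteins, was measured at 4.38, 4.15 and 3.74 CPM in controls, 1.23, 0.812 and 1.35 CPM under salt, and 1.83, 2.99 and 4.25 CPM under water deficit. Cyclophilin (AhypoNutrisol_DN7669_c0_g1_i1), an enzyme that turns proline bonds in folding proteins, stood at 31.3, 38.3 and 29.99 CPM in controls, 12.2, 14.2 and 14.4 CPM under salt, and 36.4, 20.7 and 33.6 CPM under water deficit. Their log2FCs for salt against control were -1.90 and -1.29. The water-deficit libraries of HSP70 were spread from above the salt libraries up to the control range, in which replicate 3 lay, and for cyclophilin water deficit replicate 2 stood well below the others of its group. Of 24 described and tested heat shock proteins and chaperones, 17 were called lower and 4 higher under salt than in the control (6.61% and 3.53% of all tested transcripts). Under water deficit 8 were called lower and 6 higher than in the control (6.95% and 2.75%). Against water deficit, 9 were lower and 3 higher under salt (1.75% and 2.36%). The grouping of cyclophilin with the chaperones was made after the values were seen.

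**Figure D3:**
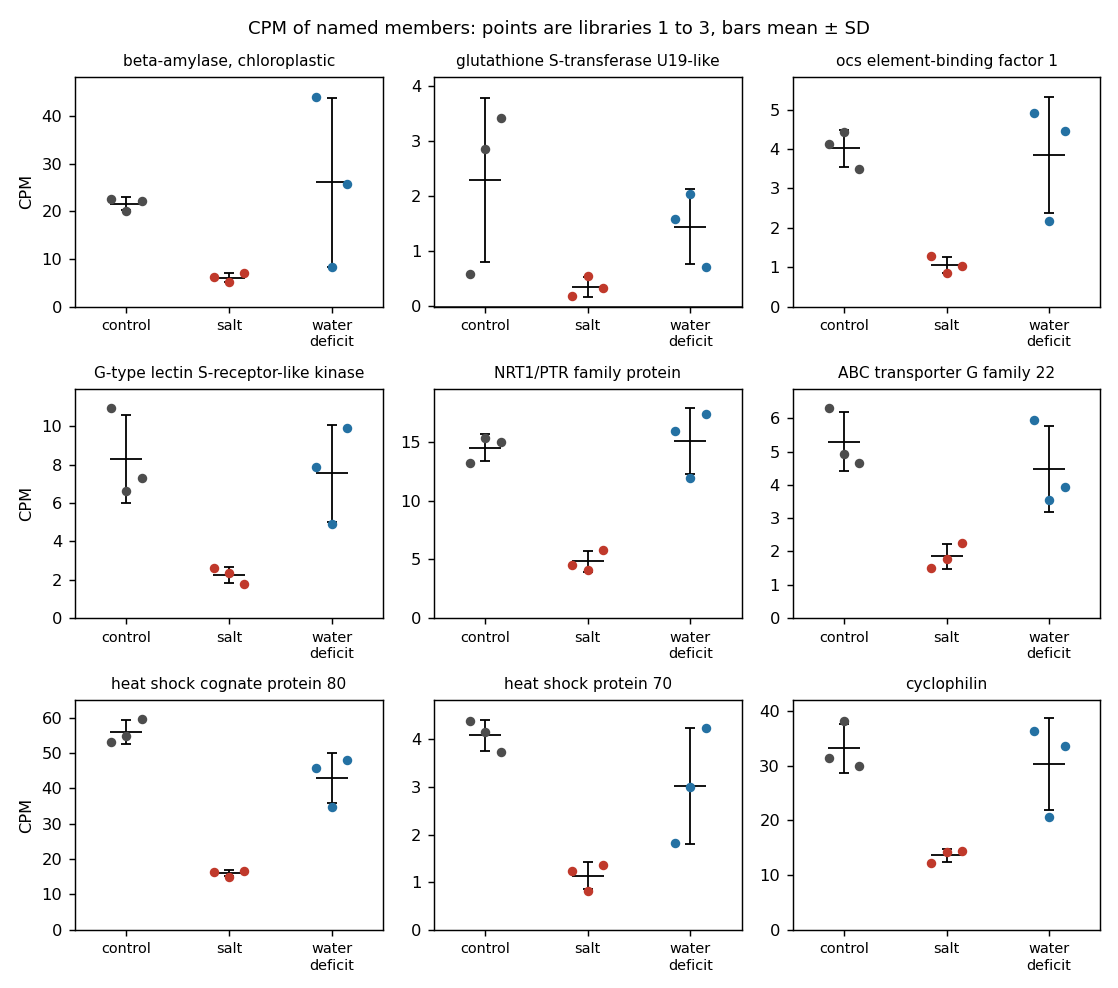
CPM of 9 named members in the control, salt and water-deficit groups of A. hypochondriacus. Points are the 3 libraries of a group and bars the mean ± SD. The salt points lie lowest in every panel, while the water-deficit points of beta-amylase range from 8.43 to 44.0 CPM and those of heat shock cognate protein 80 from 34.8 to 48.0 CPM.

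Transport accounted for 4 named members. A protein of the NRT1/PTR family (AhypoNutrisol_DN6970_c0_g1_i1), whose relatives carry nitrate and small peptides, stood at 13.2, 15.4 and 15.0 CPM in controls, at 4.57, 4.14 and 5.83 CPM under salt, and at 16.0, 12.0 and 17.38 CPM under water deficit. The control libraries lay within the range of the water-deficit libraries, and the log2FC was -1.59 ± 0.20 against control and -1.66 ± 0.20 against water deficit. It was the only member among 16 described transcripts of nitrogen transport and assimilation, of which 11 were called lower and 3 higher under salt, and 7 lower and 1 higher under water deficit. Over all tested transcripts the shares were 6.61% and 3.53% under salt, and 6.95% and 2.75% under water deficit.

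ABC transporter G family member 22 (AhypoNutrisol_DN6606_c0_g1_i1), whose Arabidopsis counterpart takes part in stomatal closure, was measured at 6.31, 4.93 and 4.65 CPM in controls, 1.51, 1.79 and 2.27 CPM under salt, and 5.96, 3.53 and 3.94 CPM under water deficit. A pair of transcripts from separate assembly clusters carried the description of ABC transporter C family member 14, a family that pumps conjugated compounds across membranes. AhypoNutrisol_DN24670_c0_g1_i1 averaged 5.31 ± 0.696 CPM in controls, 1.88 ± 0.297 CPM under salt and 3.82 ± 0.111 CPM under water deficit (SD, n = 3). The other, AhypoNutrisol_DN19713_c0_g2_i1, averaged 5.05 ± 0.152, 2.04 ± 0.474 and 3.86 ± 0.212 CPM. In both, the 3 water-deficit libraries lay between the salt and the control libraries without touching either, with log2FCs of -0.49 and -0.39 for water deficit against control. Of 32 described transporters and water channels, 20 were called lower and 11 higher under salt (6.61% and 3.53% of all tested transcripts), and 15 lower and 7 higher under water deficit (6.95% and 2.75%).

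Receptor-like kinases were represented by 2 members. The G-type lectin S-receptor-like kinase (AhypoNutrisol_DN8128_c0_g1_i1), a membrane kinase with a sugar-binding outer part, stood at 10.9, 6.65 and 7.31 CPM in controls, 2.61, 2.35 and 1.78 CPM under salt, and 7.86, 4.89 and 9.94 CPM under water deficit. The inactive receptor-like kinase (AhypoNutrisol_DN7958_c0_g1_i1), named for a kinase domain that is thought to lack activity, stood at 9.43, 8.87 and 9.14 CPM in controls, 2.61, 2.41 and 2.86 CPM under salt, and 10.2, 4.76 and 9.10 CPM under water deficit. In both, water deficit replicate 2 was the lowest outside the salt group. The log2FCs were -1.87 and -1.81 for salt against control. Of 67 described kinases, receptors and resistance proteins, 39 were called lower and 20 higher under salt (6.61% and 3.53% of all tested transcripts), and 29 lower and 6 higher under water deficit (6.95% and 2.75%).

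Gene regulation was represented by the ocs element-binding factor 1 (AhypoNutrisol_DN16254_c0_g1_i1), a bZIP transcription factor first described in maize. It was measured at 4.13, 4.43 and 3.49 CPM in controls, at 1.28, 0.866 and 1.03 CPM under salt, and at 4.92, 2.17 and 4.46 CPM under water deficit. Its log2FC was -1.95 ± 0.26 against control and -1.96 ± 0.26 against water deficit. None of 34 other transcripts described as transcription factors was a member, although 13 of them were called lower and 16 higher under salt (6.61% and 3.53% of all tested transcripts). The F-box family protein (AhypoNutrisol_DN9695_c0_g2_i1), an adaptor that selects proteins for ubiquitination, averaged 1.52 ± 0.331 CPM in controls, 0.401 ± 0.0739 CPM under salt and 1.24 ± 0.488 CPM under water deficit (SD, n = 3).

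Mobile-element descriptions were found for 2 members. The transcript like ricesleeper 2 (AhypoNutrisol_DN8342_c1_g1_i1), a transposase-derived protein known from rice, stood at 7.49, 5.93 and 5.65 CPM in controls, 1.74, 2.06 and 1.67 CPM under salt, and 6.91, 4.89 and 6.92 CPM under water deficit. An unnamed transcript of the same Trinity cluster, AhypoNutrisol_DN8342_c0_g1_i1, is also a member, with log2FCs of -1.54 against control and -1.52 against water deficit beside -1.78 and -1.78. The gag-pol polyprotein (AhypoNutrisol_DN267_c0_g1_i1), the coding part of a retrotransposon, averaged 2.18 ± 0.700, 0.642 ± 0.0824 and 1.61 ± 0.319 CPM in control, salt and water-deficit libraries (SD, n = 3).

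Enzymes that attach or supply sugars made up a further group of named members, which were taken up because they carry a name and not under the rule for named genes, as were the F-box protein, cyclophilin and the cytochrome c biogenesis factor. The UDP-glucosyltransferase (AhypoNutrisol_DN20606_c0_g1_i1), which adds glucose to small molecules, stood at 5.14, 3.50 and 6.73 CPM in controls, 1.87, 1.43 and 2.11 CPM under salt, and 6.11, 7.75 and 6.08 CPM under water deficit. A galactosyltransferase family protein (AhypoNutrisol_DN2324_c0_g1_i1) had a log2FC of -1.38 against control and -1.57 against water deficit. UDP-glucose 6-dehydrogenase 3 (AhypoNutrisol_DN5232_c0_g1_i1), which makes the UDP-glucuronate needed for cell wall polymers, had values of -1.41 and -1.78 on fewer reads, with 38, 29 and 56 counts in the control, salt and water-deficit groups. The same choice brought in a C2 and transmembrane domain protein (AhypoNutrisol_DN8108_c0_g1_i1, log2FC -1.52 against control), a relative of the NOTUM carboxylesterase of animals (AhypoNutrisol_DN6834_c0_g1_i1, log2FC -1.43) and a hypothetical protein annotated in sugar beet (AhypoNutrisol_DN680_c0_g1_i1, log2FC -1.67).

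Mitochondrial descriptions were the most frequent kind among the named members, with 9 members. Of 13 described and tested transcripts of this kind, 10 were called lower and 0 higher under salt, and 0 were called under water deficit. Over all tested transcripts the shares were 6.61%, 3.53% and 9.7%, and the described ones had been listed by the study on these libraries. Those that are not members were all called lower under salt (log2FC -1.82, -1.94, -2.70 and -1.64). Their log2FCs for water deficit against control were -0.88, -0.66, -1.28 and -0.23, and none of these was called. Over the 13, the median log2FC was -1.43 for salt against control and -0.07 for water deficit against control. The list was drawn up after the values were seen and is given as a description. It includes subunits of NADH dehydrogenase, the first complex of the respiratory chain, the cytochrome c biogenesis factor ccmFn, the reading frame orf115b, and transcripts described only as mitochondrial or membrane transport protein. Plant mitochondrial genomes encode several such subunits. A further 3 unnamed members come from the same Trinity clusters, and the 12 together are called mitochondrial-type here. They include all 4 members that rank among the 20 most abundant transcripts of the species.

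The most abundant of them, described as mitochondrial protein (AhypoNutrisol_DN8415_c0_g6_i1), stood at 4834, 2886 and 5426 CPM in controls, at 1703, 1371 and 2295 CPM under salt, and at 4357, 5893 and 3079 CPM under water deficit. It was covered by 163082, 130433 and 168605 counts in the control, salt and water-deficit groups, so that counting error is small, yet it was not called (log2FC -1.29 ± 0.36, FDR 0.0172 by edgeR, and 0.00515 without water deficit replicate 2). NADH dehydrogenase subunit 7 (AhypoNutrisol_DN8346_c1_g2_i1) stood at 2592, 1486 and 2519 CPM in controls, 1122, 730 and 1348 CPM under salt, and 2411, 3062 and 1499 CPM under water deficit. The highest salt library of this transcript reached 1348 CPM and the lowest control 1486 CPM, a narrow separation.

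Rarer members of the group showed a similar order of libraries. The cytochrome c biogenesis factor (AhypoNutrisol_DN8194_c0_g1_i1), part of the machinery that attaches heme to cytochrome c, stood at 29.3, 17.1 and 39.9 CPM in controls, 12.0, 9.88 and 16.5 CPM under salt, and 26.04, 35.9 and 20.5 CPM under water deficit. NADH dehydrogenase subunit 2 (AhypoNutrisol_DN8384_c3_g2_i1) stood at 31.1, 21.8 and 54.3 CPM, 16.3, 13.0 and 19.4 CPM, and 40.7, 46.3 and 28.8 CPM in the same order of groups. The reading frame orf115b (AhypoNutrisol_DN8346_c1_g3_i1) stood at 10.2, 6.65 and 15.9 CPM, 4.39, 3.36 and 4.43 CPM, and 9.45, 18.1 and 6.74 CPM. In each of them control replicate 3 and water deficit replicate 2 were the highest of their groups. Over the 12, the log2FC for salt against control ranged from -1.57 to -0.94 with a median of -1.16, beside -1.47 for the 88 other members. Salt was called lower than control for 7 of the 12 and lower than water deficit for 2, against 6.61% and 1.75% of all tested transcripts. The calls of orf115b, NADH dehydrogenase subunit 2 and the NADH-quinone oxidoreductase protein (AhypoNutrisol_DN8384_c1_g1_i1) were lost without control replicate 3 (FDR 0.0583, 0.105 and 0.0434), salt replicate 1 (FDR 0.0187, 0.0394 and 0.0226) or salt replicate 2 (FDR 0.0362, 0.06 and 0.0269). Without control replicate 1 (FDR 0.0175 and 0.0201) or salt replicate 3 (FDR 0.0187 and 0.0182) the first 2 of these calls were lost, and the second also without water deficit replicate 1 (FDR 0.0115).

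With TMM scaling, the 12 mitochondrial-type members also varied together within groups. Control replicate 2 was the lowest control for 12 of 12, salt replicate 2 the lowest salt library for 11, water deficit replicate 3 the lowest and water deficit replicate 2 the highest of the water-deficit libraries for 12. Among all tested transcripts those positions fell to the same libraries in 33.5%, 28.9%, 26.7% and 39.4% of cases. Among the 21 other members with a name, water deficit replicate 2 was instead the lowest of its group for 14. In each group the library in which the 12 were lowest was the one with the smallest share of counts on the 20 most abundant transcripts (94.9% in control replicate 2, 92.7% in salt replicate 2, 94.2% in water deficit replicate 3) and with the largest TMM factor (0.958, 1.81 and 1.44). The part of that share in the lower salt values was not tested. The order within groups depended on the scaling. Per 1 M counts of the library total, AhypoNutrisol_DN8415_c0_g6_i1 stood at 3332, 2756 and 3959 in controls. It stood at 1973, 2468 and 2470 under salt, and at 4032, 3971 and 4415 under water deficit. For most of the 12, water deficit replicate 3 was then the highest of its group. Scaled by library totals in place of TMM, all 3 salt libraries lay below all others for 3 of the 12 and for 16 of the 88 other members, against 0.491% of all tested transcripts under that scaling.

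**Figure D4:**
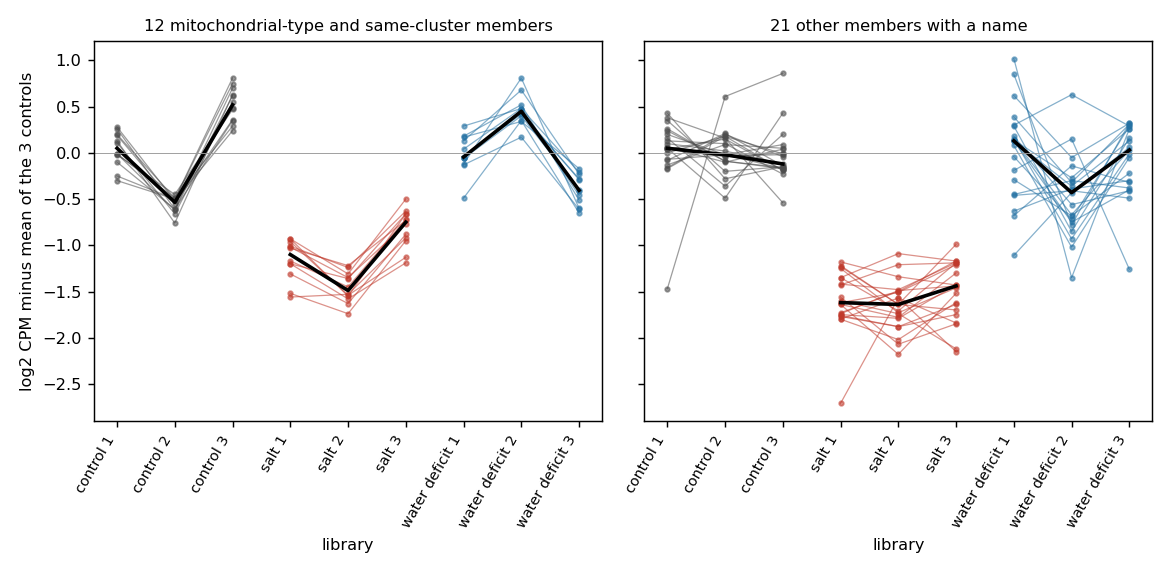
Log2 CPM minus the mean of the 3 controls (vertical) in the 9 libraries (horizontal) for the 12 mitochondrial-type members (left) and the 21 other members with a name (right). Thin lines are transcripts, joined within a group only, and the thick line is their median. On the left the medians are -0.54 in control replicate 2 and 0.52 in control replicate 3, and on the right -0.02 and -0.12.

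Transcripts of a cluster were looked at next, since Trinity places related or overlapping sequences in a cluster and the choice was made on single transcripts. The 100 members come from 93 clusters, and 5 of these clusters hold more than 1 member, 12 members in all. The largest number was 4, in AhypoNutrisol_DN8384, a cluster with descriptions of NADH dehydrogenase. The others were AhypoNutrisol_DN8346 and AhypoNutrisol_DN8415, whose members are called mitochondrial-type here, AhypoNutrisol_DN8342 with the transcript like ricesleeper, and AhypoNutrisol_DN8355, whose 2 members have no name. AhypoNutrisol_DN8346 also holds a transcript with a plastid description, ycf68 protein, which is not a member and is described below. In AhypoNutrisol_DN8355 the transcripts c0_g1 and c0_g2 had log2FCs of -1.01 and -1.50 against control, and both were highest in control replicate 3.

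Members had 8 tested cluster mates that are not members themselves, and these were taken by their cluster alone. As they are not members, each had failed at least 1 condition of the choice or fell below the rank limit. Of them 0 were called for salt against control by edgeR's quasi-likelihood test, where 6.61% of all tested transcripts were called lower, 4 had an unadjusted p below 0.05, the exact test of edgeR called 0 and DESeq2 called 1. That one was described as ycf68 protein (AhypoNutrisol_DN8346_c1_g4_i1), a reading frame known from plastid genomes. It stood at 275400, 210800 and 283600 CPM in controls, 116700, 85300 and 137200 CPM under salt, and 161400, 241500 and 100800 CPM under water deficit, so salt and water-deficit libraries overlapped (log2FC -1.18 for salt against control, FDR 0.0734 by edgeR). The mate of UDP-glucose 6-dehydrogenase 3, AhypoNutrisol_DN5232_c0_g2_i1, stood at 0.589, 0.429 and 0.415 CPM in controls and at 0.777, 0.460 and 0.972 CPM under salt. Reads that matched more than 1 place had not been counted, so levels of near-identical transcripts of a cluster are uncertain.

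Several groups of described leaf transcripts had no member at all. Of 33 described light-harvesting and photosystem transcripts, 31 were called lower under salt and 28 under water deficit, with 0 higher under either. For terpenoid enzymes and cytochromes P450 the numbers lower were 15 and 15 of 17, for chlorophyll and carotenoid synthesis 9 and 10 of 11, and for sulfate assimilation 8 and 8 of 12. In these 3 groups 1, 1 and 3 were called higher under salt, and 0, 0 and 1 under water deficit. Among 11 described transcripts of jasmonate and abscisic acid metabolism and signalling 7 were called lower and 1 higher under salt, and 8 lower and 2 higher under water deficit. Light and clock regulators had 13 lower and 6 higher under salt of 19 described, and 11 and 4 under water deficit. Repeat proteins of the pentatricopeptide and tetratricopeptide families had 7 lower and 5 higher under salt of 12, and 7 and 1 under water deficit. Sugar transport, with 1 lower and 4 higher under salt of 5, and 1 and 2 under water deficit, also held no member. The same was true of viral descriptions, with 1 lower and 0 higher under salt of 4, and 0 called under water deficit. These transcripts carry a name because the study had listed them on the same libraries, so the shares are high by construction.

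The *A. hybridus* libraries took no part in the choice of members. Of the 25 distinct descriptions of members, apart from uncharacterized and hypothetical proteins, 10 were shared by a tested transcript of *A. hybridus*, 11 transcripts in all. A shared description does not make them orthologs, and levels were not compared between species. Each of the 11 has a description because the study had listed it as changed under stress in these same *A. hybridus* libraries. Of the 11, 1 was called for salt against control by edgeR, where 0.0103% of the 9686 tested transcripts of that species were called, and 2 for water deficit against control, where 4.23% were. As the 11 were preselected on these libraries, nothing is read from the counts. Control replicate 3 of *A. hybridus* stands apart, with a TMM factor of 4.95 and 85.9% of its counts on the 20 most abundant transcripts, against 95.6 to 98.7% in the other libraries of that species.

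The transcript like glutathione S-transferase U19 was higher under both stresses in *A. hybridus* (Ahybridus_DN26590_c0_g1_i1). It stood at 0.300, 0.259 and 0.147 CPM in controls, at 2.5, 1.76 and 3.60 CPM under salt, and at 2.22, 2.42 and 1.94 CPM under water deficit. No stressed library overlapped a control. The log2FC was 3.73 ± 0.40 for salt (FDR 0.00324 by edgeR) and 3.46 ± 0.40 for water deficit (FDR 2.00e-04). The salt call was lost without control replicate 2 (FDR 0.0279), control replicate 3 (FDR 0.0452), salt replicate 1 (FDR 0.0131) or salt replicate 3 (FDR 0.0311), with log2FCs from 3.26 to 3.87, and in a fit blocked by replicate number (FDR 0.0324). The call for water deficit held in each of these cases, and with library totals as the only scaling both calls were lost (log2FC 3.11 and 2.49, FDR 0.778 and 0.386).

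The NRT1/PTR family transcript of *A. hybridus* (Ahybridus_DN8424_c0_g1_i1) stood at 10.0, 7.98 and 5.71 CPM in controls, 13.6, 8.05 and 6.38 CPM under salt, and 0.723, 0.484 and 1.27 CPM under water deficit. Salt and control libraries overlapped (log2FC 0.24 ± 0.35, FDR 0.901), and water deficit was lower (log2FC -3.29 ± 0.42, FDR 3.78e-04 by edgeR), a call that was lost with library totals as the only scaling (log2FC -4.15, FDR 0.0792). Beta-amylase (Ahybridus_DN3915_c0_g1_i1) stood at 24.5, 21 and 22.6 CPM in controls, 33.4, 32.6 and 23.7 CPM under salt, and 56.3, 48.8 and 10.4 CPM under water deficit. Neither difference was called (log2FC 0.40 ± 0.47 and 0.76 ± 0.48, FDR 0.866 and 0.354), and 1 water-deficit library lay far below the others, as in *A. hypochondriacus*.

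The 6 transcripts of *A. hybridus* with mitochondrial descriptions had log2FCs of -0.90 to -0.64 for salt against control, and 0 of the 6 were called (lowest FDR 0.768 by edgeR). Over all tested transcripts of that species the median was -0.03. The study had listed all 6 as lower under salt in these same libraries, and only listed transcripts have a description. Their shared sign was thus fixed in advance, and nothing is read from it. Control replicate 1 was the highest and control replicate 3 the lowest control for 6 of 6. For the cytochrome c biogenesis factor (Ahybridus_DN9834_c0_g1_i1) the controls stood at 62.4, 30.6 and 4.09 CPM, a spread that took in the salt libraries at 32.7, 13.5 and 11.4 CPM and the water-deficit libraries at 16.4, 19.7 and 32.8 CPM. The log2FC of this transcript for salt against control was -0.75 ± 0.70 (SE). Whether a difference of the size seen in *A. hypochondriacus* could be detected against that spread was not tested. The UDP-glucosyltransferase (Ahybridus_DN4523_c0_g1_i1, log2FC -1.02 ± 0.71, FDR 0.761) had the same order of controls, with 9.01, 4.10 and 0.486 CPM.

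**Figure D5:**
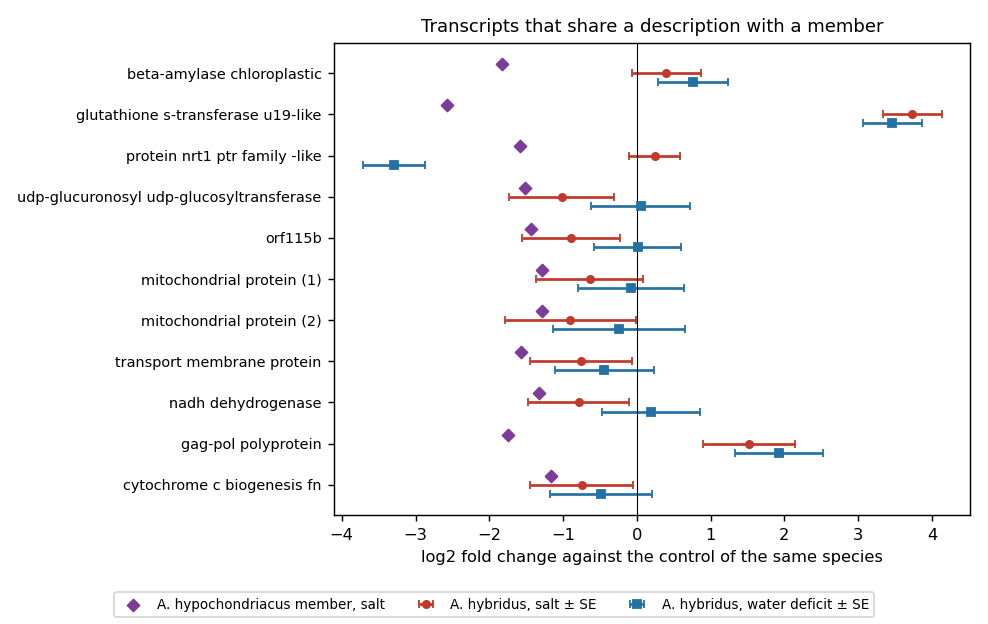
Log2 fold change against the control of the same species for the 11 A. hybridus transcripts that share a description with a member, under salt (circles) and water deficit (squares), with bars for the SE, and for the A. hypochondriacus member under salt (diamonds). The glutathione S-transferase lies at 3.73 and 3.46 in A. hybridus and at -2.58 in A. hypochondriacus, and the 6 mitochondrial transcripts lie between -0.90 and -0.64 under salt.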

How the data were processed

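The authors trimmed single-end reads of 75 bases with Trimmomatic, assembled each species with Trinity, clustered the contigs by CD-HIT (90% identity), mapped reads with Bowtie2 2.3.0 and counted uniquely mapped reads per transcript. They deposited raw counts, without normalization, for the 18 libraries, and these counts were used as deposited. Log2FC and p-value columns in the tables of the study were not used, and only descriptions were taken from them.

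Each species was fitted on its own in R 4.3.3 with edgeR 4.0.16 (filterByExpr by group, TMM, glmQLFit, glmQLFTest, 6 residual degrees of freedom) and Benjamini-Hochberg adjustment over all tested transcripts. SEs were derived from the log2FC and the F statistic. DESeq2 1.42.0, the edgeR exact test, other scalings, filters and limits, a replicate block and each library left out were alternatives. Scripts were tested on simulated data. Figures used Python 3.11.15 with matplotlib 3.10.9.

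The members and lists were chosen with earlier results of these data known. Named genes are the 10 highest members, up to 4 per list, 3 on each side of the rank limit, and members that share a cluster. Lists were matched by words of the description, and words in the long name of beta-amylase also put it in the lists for redox and iron (28 described, 18 called lower and 4 higher under salt) and lipids and cell wall (35, 24 and 8). Organelle and mobile-element descriptions (15 described) had 10 called lower and 3 higher. Over all tested transcripts 6.61% were called lower and 3.53% higher under salt. Transcripts of 1 assembly cluster are not reported here. No sequences or lengths were at hand, so levels were not compared between transcripts. The labels name no separate cultures beyond the pools, and p-values measure the spread between these libraries.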

Additional observations from a re-analysis of the deposited data

Results flagged for a closer look

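For 2 descriptions all 3 salt libraries lay below all controls in *A. hypochondriacus* and above all controls in *A. hybridus*. The transcript like glutathione S-transferase U19 had a log2FC of -2.58 in *A. hypochondriacus* and of 3.73 in *A. hybridus*. The gag-pol polyprotein had a log2FC of -1.75 in *A. hypochondriacus* and of 1.52 in *A. hybridus* (FDR 0.634 by edgeR, not called). Beta-amylase and the NRT1/PTR family transcript also had log2FCs of opposite sign (-1.83 and 0.40, and -1.59 and 0.24), with salt and control libraries that overlapped in *A. hybridus*. The difference between species was not tested, the first direction was fixed by the choice of members, and the transcripts are matched by description only. The *A. hybridus* transcripts had themselves been listed by the study on the *A. hybridus* libraries. Among them, the glutathione S-transferase was listed as higher under salt and under water deficit.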

How the results depend on the processing

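Of the 100 members, the top 100 under another setting held 18 with library totals as the only scaling, 46 without a filter on low counts, 66 with CPM above 1 in 3 libraries (67 of the members were then tested) and 54 to 78 with a library left out, lowest without water deficit replicate 2. With library totals only 31 transcripts met the conditions at all, against 431 with TMM, so that list was shorter than 100. With library totals the median log2FC of all tested transcripts for salt against control moved from 0.00 to 0.77 and that of the members from -1.45 to -0.67. All 100 stayed below the median of all, which the choice had fixed in large part, as the scaling moved all transcripts by a similar amount. Of the calls for salt against control among all transcripts, 15.9% were then lower, against 65.2%.

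Members called lower than control numbered 58. The number was 2 with library totals, 7 with an absolute log2FC above 2, 88 with an FDR below 0.05, and 29 to 66 with a library left out (38 without control replicate 1, 32 without control replicate 3, 37 without salt replicate 1, 29 without salt replicate 2). Members called lower than water deficit numbered 42, with 3 for library totals, 9 and 70 for the same limits, and 14 to 42 with a library left out (18, 14 and 24 without salt replicates 1, 2 and 3, and 16 and 15 without water deficit replicates 1 and 3). DESeq2 gave 52 and 45, with no adjusted p for 9 members in the second. Calls for water deficit against control stayed at 0 throughout. Among cluster mates the count went from 0 to 1 with DESeq2 and with an FDR below 0.05. The *A. hybridus* count for salt went from 1 to 0 with library totals and ranged from 0 to 1 with a library left out, and that for water deficit went from 2 to 0 with library totals. With the replicate number as a block the counts were 49, 32, 0 and 0 for the members and mates, and 0 and 2 in *A. hybridus*. Deviations of same-numbered libraries of *A. hypochondriacus* correlated between -0.09 and 0.06 in 9 pairs, and those of 18 other pairs between -0.08 and 0.13. In *A. hybridus* the same-numbered pairs reached from -0.16 to 0.25. The paper reports that treatments were laid out in randomized complete blocks, and the labels do not say whether a replicate number marks a block. With 3 libraries in a group, these correlations cannot decide it. Of 635 values for single named transcripts, 86 lost a call, 28 of them with library totals, 7 gained one and 0 turned direction.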
